A study of Mus musculus with 22 samples.

Results

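The HOX cluster genes were taken as every gene of the count table whose symbol is Hoxa, Hoxb, Hoxc or Hoxd followed by a paralog number, with antisense and opposite-strand names left out. This gave 39 of 24454 genes, of which 11 lie in HoxA, 10 in HoxB, 9 in HoxC and 9 in HoxD. The libraries were made by Smart-seq2 from 25 VE-Cad+ cells each, sorted from the aorta-gonad-mesonephros (AGM) region of untreated C57BL/6 mouse embryos at E9.5, E10 or E11. The 4 populations were separated by CD44 and Kit. CD44Neg, labelled endothelial cell, had 10 libraries (E9.5 gave 4, E10 gave 3 and E11 gave 3). CD44LowKitNeg, labelled hemogenic endothelial cell, had 6 (E9.5 gave 1, E10 gave 2 and E11 gave 3). CD44LowKitPos, labelled pre-HSPC, had 3 (E9.5 gave 1 and E10 gave 2), and CD44High, labelled HSPC, had 3, all from E11. Since CD44High and CD44LowKitPos shared no stage, population and stage cannot be told apart for that pair. The date in the labels also changes with stage. The titles of all CD44LowKitPos and CD44High libraries carry the letters KG, which no other title does and which are not explained. This mark cannot be told apart from population where they are compared with the endothelial populations.

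HOX genes encode homeodomain transcription factors that lie in order along their clusters, and low paralog numbers are used in the front of the embryo while high numbers are added towards the tail. In blood development several of them, HOXA9 above all, are known from stem and progenitor cells and are shut down as blood cells mature. HOX proteins bind DNA together with TALE homeodomain cofactors of the PBX and MEIS families.

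Library totals lay between 3912350 and 8657546 reads. The labels matched their markers only in part. Of 8 endothelial markers, the summed level was 3517 to 5921 normalized CPM (the share of reads scaled by the effective library size) in CD44Neg, 3720 to 8658 in CD44LowKitNeg, 764.9 to 1853 in CD44LowKitPos and 14.1 to 78.7 in CD44High, where Cdh5, which encodes the VE-Cad used in the sort, had 0 reads in all 3 libraries. Of 8 blood markers, the sum was 19.6 to 49.6 in CD44Neg, 103.9 to 350.0 in CD44LowKitNeg, 528.1 to 1427 in CD44LowKitPos and 1286 to 2369 in CD44High. Of 6 macrophage markers, the sum was 1177 to 3392 in CD44High and at most 39.3 in any other library, and C1qa, C1qb, C1qc and Adgre1 were at 0 outside CD44High.

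The last genes of the clusters had no reads. Counts were found for 32 of the 39 members, and 27 reached 10 reads in at least 1 library. The 7 members at 0 reads in all 22 libraries were Hoxa13, Hoxb13, Hoxc11, Hoxc12, Hoxc13, Hoxd12 and Hoxd13, so that none of the paralog 12 or 13 genes was seen. All 7 belong to the 16 posterior genes (paralogs 9 to 13), whereas each of the 8 anterior (1 to 3) and 15 central genes (4 to 8) had reads somewhere. A count of 0 still allows up to 3 reads, and this limit covers counting error only.

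HoxA and HoxB carried most of the reads. HoxA took 37.4% to 69.8% of HOX reads in the CD44Neg libraries, 62.99% to 81.7% in CD44LowKitNeg and 71.5% to 91.3% in CD44LowKitPos. HoxB took 19.9% to 46.7%, 14.2% to 29.99% and 7.60% to 24.9% in the same order. HoxC never passed 5.22% in those 3 populations, and its 2 highest genes over all libraries, Hoxc5 and Hoxc9, stayed between 0 and 3.405 normalized CPM there. HOX reads per library were 501 to 1513 in CD44Neg, 1384 to 2498 in CD44LowKitNeg and 1014 to 2699 in CD44LowKitPos, which limits the precision of every low member.

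Compared per kilobase of exon with the stages pooled, the order of HOX genes differed between the populations. In CD44Neg the order of mean levels among the genes described was Hoxb7 (16.7 ± 9.93 normalized CPM per kb, SD, n = 10), Hoxa5 (9.10 ± 3.92), Hoxa9 (6.50 ± 2.74), Hoxd8 (4.56 ± 3.21) and Hoxb5 (4.48 ± 2.86), and each neighbouring pair in this order lay within its SD. In CD44LowKitNeg Hoxa9 came first (21.6 ± 11.8, n = 6), before Hoxb7 (9.41 ± 6.35) and Hoxa5 (9.28 ± 3.91). In CD44LowKitPos Hoxa9 stood at 27.2 ± 16.3 (n = 3), followed by Hoxa7 (6.01 ± 3.25) and Hoxa5 (5.32 ± 2.24), while Hoxb7 was at 0.816 ± 0.792. The order varied with stage: in CD44Neg at E9.5 Hoxa5 (8.87 ± 1.75, n = 4) stood above Hoxb7 (6.73 ± 3.07), and in CD44LowKitNeg at E11 Hoxa9 (11.3 ± 0.372, n = 3) and Hoxa5 (10.9 ± 5.52) lay within the spread. These lengths join all annotated exons of a gene, which for Hoxa9 makes 5580 bases.

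**Figure D1:**
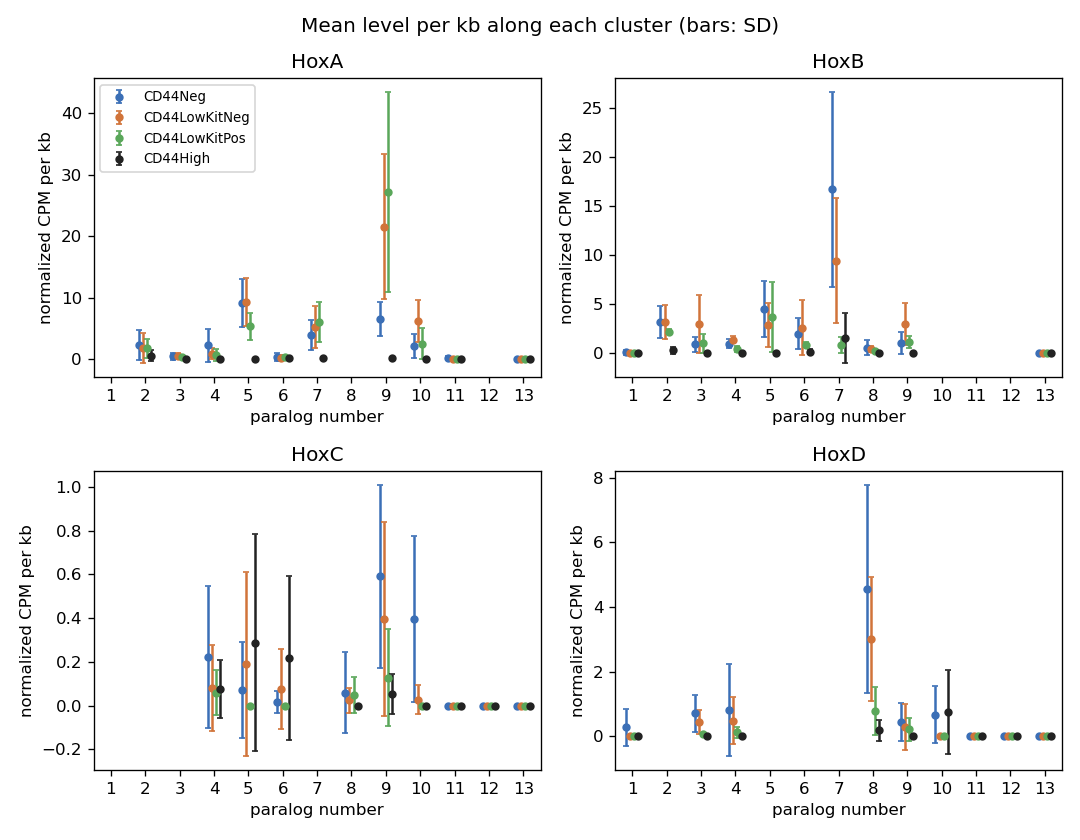
Mean level per kb of 38 HOX genes (y axis, normalized CPM per kb; the scale differs between panels) by paralog number (x axis) in the 4 clusters; points are population means and bars 1 SD over libraries. Hoxa9 is the highest point of HoxA in CD44LowKitNeg (21.6) and CD44LowKitPos (27.2), and Hoxb7 is the highest of HoxB in CD44Neg (16.7).

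**Figure D2:**
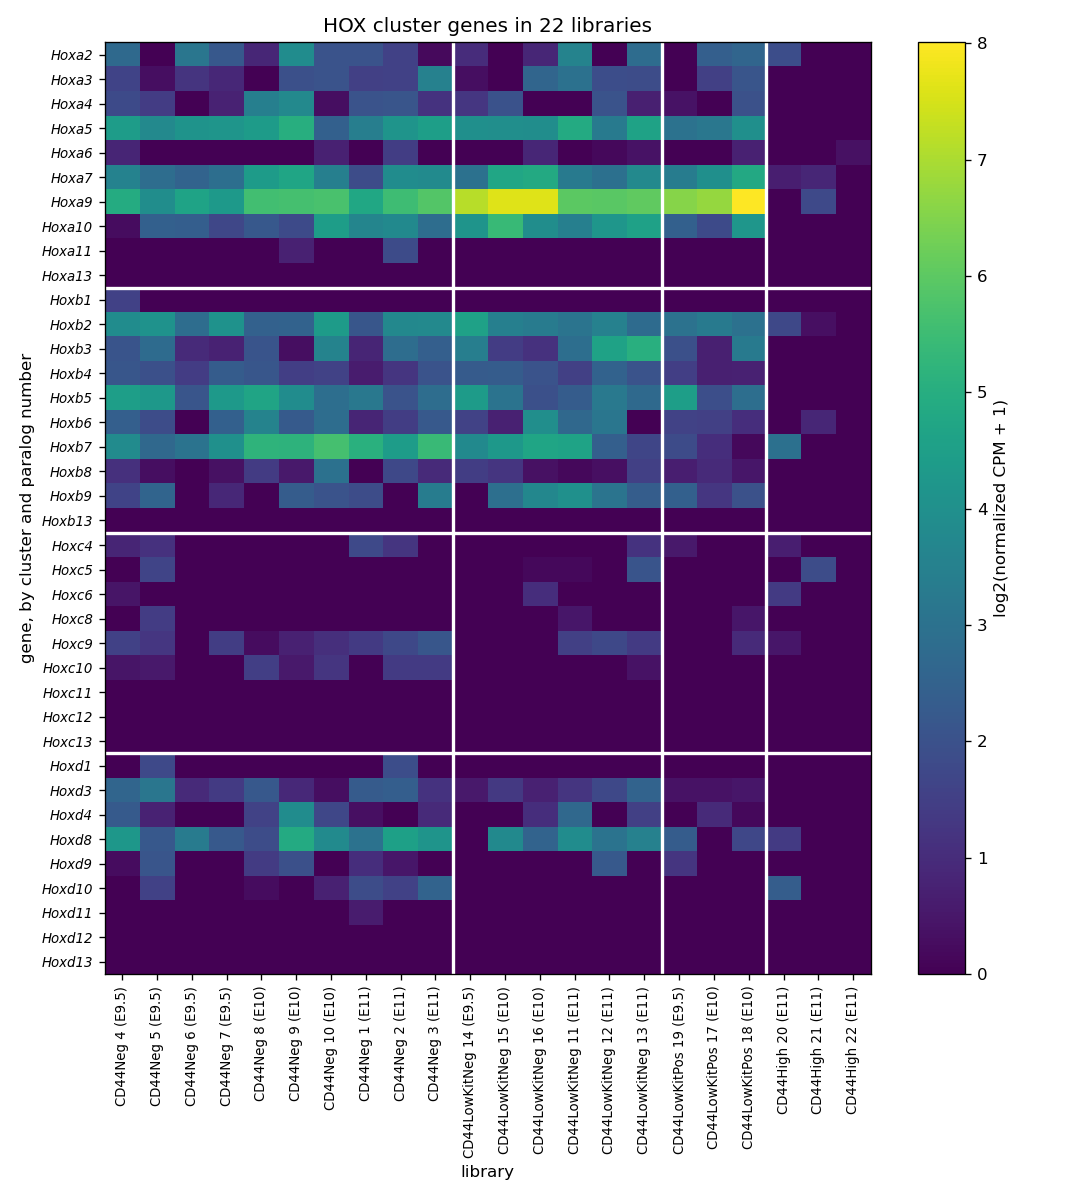
Level of 38 HOX genes (rows, by cluster and paralog number) in the 22 libraries (columns, by population and stage) as log2(normalized CPM + 1). The 3 CD44High libraries on the right have reads for 9, 5 and 1 members.

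Hoxa9 lies on the minus strand of chromosome 6 at chr6:52223100-52231089 (GRCm38, GENCODE M21), between Hoxa7 and Hoxa10, and spans the microRNA gene Mir196b on the same strand. Of the 39 members, 23 overlap another annotated gene and 14 a gene on the opposite strand, and since the strand setting of the counting was not given in the sources used here, reads of such pairs may be split or merged. The windows from 250 bases before to 50 after the RefSeq start (GRCm38.p6) are shown for 4 HoxA genes because these were the HoxA members called between CD44LowKitPos and CD44High. Capitals mark CG dinucleotides, and all 4 are read from the minus strand, 5′ to 3′: chr6:52204538-52204837 for Hoxa5, chr6:52218524-52218823 for Hoxa7, chr6:52227321-52227620 for Hoxa9 and chr6:52240805-52241104 for the outer of the 2 listed starts of Hoxa10.
Hoxa5: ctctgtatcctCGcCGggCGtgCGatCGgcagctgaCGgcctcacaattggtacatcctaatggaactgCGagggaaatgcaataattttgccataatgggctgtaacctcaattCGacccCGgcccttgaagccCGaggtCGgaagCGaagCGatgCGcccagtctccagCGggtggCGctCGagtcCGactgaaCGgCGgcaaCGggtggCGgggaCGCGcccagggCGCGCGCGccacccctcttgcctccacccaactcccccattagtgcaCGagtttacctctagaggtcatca
Hoxa7: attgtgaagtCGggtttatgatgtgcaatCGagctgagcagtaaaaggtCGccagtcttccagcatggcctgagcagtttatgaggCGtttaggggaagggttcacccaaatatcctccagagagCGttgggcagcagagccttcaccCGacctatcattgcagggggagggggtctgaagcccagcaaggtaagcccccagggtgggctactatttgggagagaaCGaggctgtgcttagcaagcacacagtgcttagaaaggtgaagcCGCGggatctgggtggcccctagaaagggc
Hoxa9: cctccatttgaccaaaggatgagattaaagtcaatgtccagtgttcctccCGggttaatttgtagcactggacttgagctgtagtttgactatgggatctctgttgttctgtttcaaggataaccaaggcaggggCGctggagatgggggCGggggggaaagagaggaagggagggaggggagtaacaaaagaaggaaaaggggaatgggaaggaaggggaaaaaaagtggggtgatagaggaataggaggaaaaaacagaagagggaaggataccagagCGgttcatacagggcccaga
Hoxa10: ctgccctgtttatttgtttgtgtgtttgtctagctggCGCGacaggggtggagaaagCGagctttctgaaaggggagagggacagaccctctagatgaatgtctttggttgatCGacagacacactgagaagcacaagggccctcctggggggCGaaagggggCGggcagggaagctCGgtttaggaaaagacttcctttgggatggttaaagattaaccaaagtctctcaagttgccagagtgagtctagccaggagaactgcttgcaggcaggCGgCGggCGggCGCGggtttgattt

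The Hoxa5 window held 29 CG dinucleotides, Hoxa7 9, Hoxa9 4 and Hoxa10 12, against a median of 7 over 32851 RefSeq promoter windows and 14.5 over the 24 windows listed for 22 HOX members. Both strands of each window were searched for 5 short motifs. The letters TGATTNAT of a paired PBX and HOX site were in 3.22% of all windows and the RUNX core TGTGGT in 16.8%. The blood GATA factor core AGATAA was in 11.2%, the MEIS core TGACAG in 19.2% and the ETS core CCGGAAG in 8.86%. None was in the 4 windows shown, which says only that these letters are not there.

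The first comparison asked which HOX genes separated the 2 endothelial populations. Hoxa9 alone was called between CD44LowKitNeg and CD44Neg, and it was higher in CD44LowKitNeg. In CD44Neg its lowest, median and highest levels were 14.3, 36.9 and 57.7 normalized CPM, and in CD44LowKitNeg 61.3, 103.8 and 197.1. The lowest CD44LowKitNeg library lay above the highest CD44Neg library. On the log2 scale the fold change came to 1.73 (SE 0.33, adjusted p = 0.000927, edgeR quasi-likelihood test, Benjamini-Hochberg adjusted, called under 0.01). Across the 11022 genes tested in this comparison 10.2% were called, and 4.94% were called higher in CD44LowKitNeg, so 1 call among the 18 HOX members tested is near the background share. Every library lay above CD44Neg for 2.50% of genes tested. The sum of the blood markers, given above, was also higher in each CD44LowKitNeg and CD44LowKitPos library than in any CD44Neg library. That of 8 neural markers was 111.3 to 682.8 normalized CPM in CD44LowKitNeg against 20.7 to 106.7 in CD44Neg. In CD44LowKitNeg 6 of the 8, Sox2, Pax6 and Sox10 among them, were at 0. Stmn2 gave nearly all of the neural reads there (831 to 5282 per library, against at most 1 of Tubb3). The part of the blood and neural markers in the Hoxa9 difference was not tested.

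By stage, the 3 CD44LowKitNeg libraries at E11 read 62.5, 61.3 and 65.3 normalized CPM, the E9.5 library 142.4, and the 2 E10 libraries 194.0 and 197.1. CD44Neg read 29.2, 14.3, 24.2 and 19.2 at E9.5, 46.6, 49.0 and 51.7 at E10, and 26.2, 44.7 and 57.7 at E11. The ratio of means was therefore 6.55 at E9.5 (1 CD44LowKitNeg library), 3.98 at E10 and 1.47 at E11. With E11 libraries alone the edgeR log2 fold change was 0.61 (adjusted p = 0.319), and with E10 alone 2.07 (adjusted p = 0.0230), neither of which passed 0.01. In those fits 0 HOX members were called, beside 3.41% of genes at E11 and 0.00894% at E10.

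The change of this difference with stage was tested directly. The edgeR interaction of population with stage between E10 and E11 was -1.46 on the log2 scale (SE 0.43, adjusted p = 0.237) and was not called. Within CD44LowKitNeg, Hoxa9 was lower in each E11 library than in each earlier one, and the edgeR log2 difference of -1.45 (SE 0.25, adjusted p = 0.0279) missed 0.01, although DESeq2's Wald test called it (adjusted p = 1.48e-05). Hoxa9 was also called with no filter on low counts. Stage and the date in the labels cannot be told apart here. Markers of several cell types moved along with this contrast. The 10 mesenchymal markers summed to 29.2 to 99.1 normalized CPM in the 3 E11 libraries and to 4.19 to 23.0 in the earlier ones, the 8 endothelial markers to 7224 to 8658 and 3720 to 5001, and the 6 erythroid markers to 32.2 to 61.3 and 13.8 to 31.9. The 8 blood markers overlapped in their sum (103.9 to 154.0 and 108.4 to 350.0), but Runx1, a regulator of the endothelial to blood transition, was at 0 in the E11 libraries and at 76.2 on average before (adjusted p = 0.00759, edgeR), Spi1, Myb and Coro1a were lower in each E11 library without being called, and Laptm5 was higher in each (123.8 against 60.3 on average, adjusted p = 0.261). Their part in the Hoxa9 difference was not tested.

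No other HOX member was called between the endothelial populations. Hoxa10, a neighbour of Hoxa9 that is also used in blood progenitors, had a lowest, median and highest level of 0.19, 4.41 and 20.96 normalized CPM in CD44Neg and 9.94, 16.9 and 41.1 in CD44LowKitNeg. The groups overlapped, and the edgeR log2 difference of 1.57 (SE 0.61) had an adjusted p of 0.0750. Hoxb3, an anterior gene, reached 6.45, 23.3 and 32.5 in the E11 CD44LowKitNeg libraries, against 1.68 and 1.22 at E10 and 9.73 at E9.5. Its overall edgeR difference from CD44Neg was 1.78 (SE 0.79, adjusted p = 0.120) and turned to -1.66 with E10 libraries alone. Hoxa5 stood at 17.1 ± 7.36 in CD44Neg and 17.4 ± 7.34 in CD44LowKitNeg, and Hoxb2 at 11.01 ± 5.81 and 10.99 ± 6.02, all in normalized CPM with SD.

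The other named members overlapped between the endothelial populations. Hoxa7, Hoxb4, Hoxb5, Hoxd3 and Hoxd8 had edgeR log2 differences from -0.66 (Hoxd3, SE 0.83, adjusted p = 0.638) to 0.52 (Hoxb4, SE 0.63, adjusted p = 0.625). Hoxd8, a central gene, had a lowest, median and highest level of 2.61, 11.2 and 28.6 normalized CPM in CD44Neg and 0, 8.88 and 13.97 in CD44LowKitNeg. Hoxb5 read 3.11, 11.03 and 24.7 in CD44Neg and 2.84, 6.47 and 20.2 in CD44LowKitNeg, in the same order, and Hoxc9 was not tested here.

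**Figure D3:**
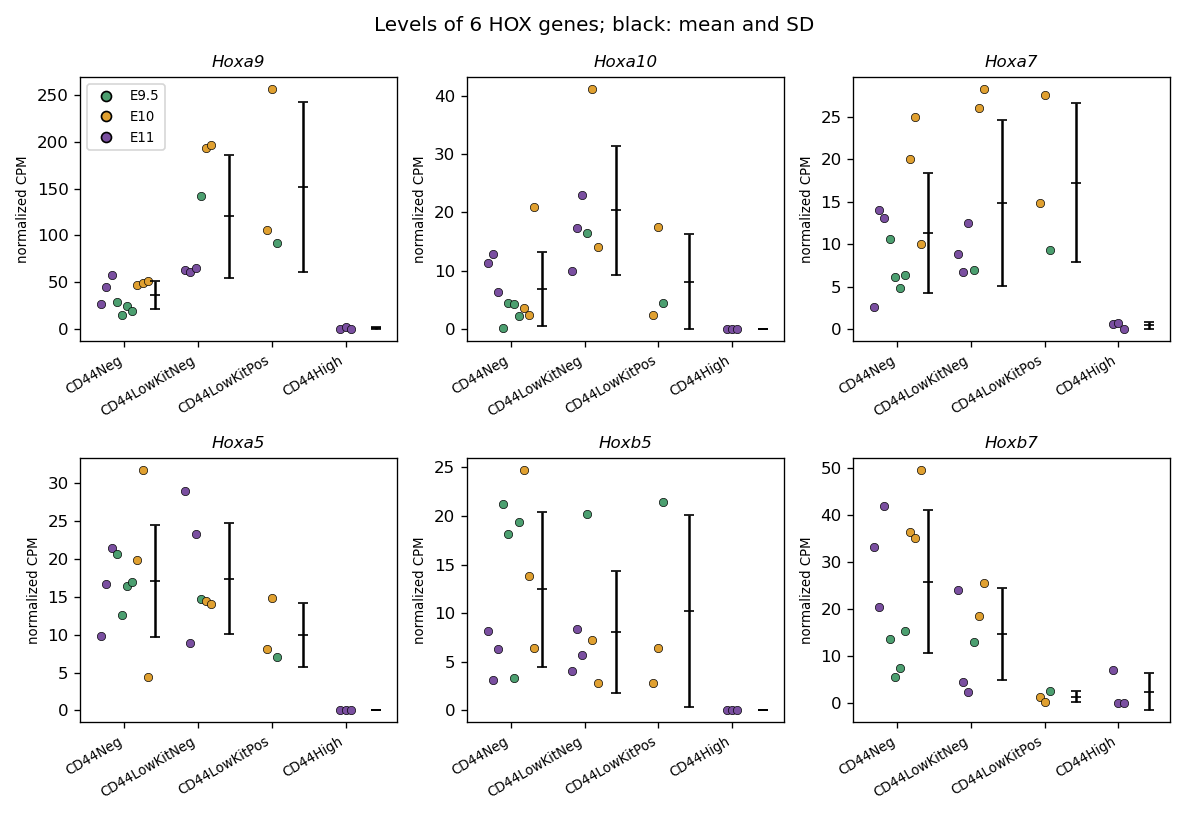
Levels of 6 HOX genes (y axis, normalized CPM, scale differs between panels) by population (x axis); each point is a library coloured by stage and black bars give the mean and SD. For Hoxa9 every CD44LowKitNeg library (61.3 to 197.1) lies above every CD44Neg library (14.3 to 57.7), and CD44High lies at 0 to 2.39 for all 6 genes except Hoxb7 in library 20 (6.84).

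Between CD44LowKitNeg and CD44LowKitPos, which differ in Kit, 0 of 23 tested HOX members were called by edgeR, beside 4.26% of 12949 genes, and 1 member, Hoxb7, had an unadjusted p under 0.05. Limma voom called 0 and DESeq2's Wald test 1, Hoxb7. Every CD44LowKitPos library lay below every CD44LowKitNeg library for 2 members, Hoxb4 and Hoxd3, as for 7.35% of genes tested. Hoxb4 read 0.62, 0.67 and 1.81 normalized CPM in CD44LowKitPos against 1.88 or more in CD44LowKitNeg, and Hoxd3 read 0.31, 0.40 and 0.30 against 0.46 or more, levels of a few reads each. Hoxa9 read 106.3, 256.5 and 92.1 normalized CPM in CD44LowKitPos. That range overlapped CD44LowKitNeg, and the log2 difference of 0.33 (SE 0.56, adjusted p = 0.761) turned to -0.32 without CD44LowKitPos library 18 and to -0.27 with E9.5 and E10 libraries alone.

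Hoxb7, a central HoxB gene, was low in CD44LowKitPos. Its lowest, median and highest levels were 5.49, 26.8 and 49.5 normalized CPM in CD44Neg and 2.17, 15.7 and 25.4 in CD44LowKitNeg. In CD44LowKitPos the 3 libraries read 1.08, 0.13 and 2.56. All 3 lay below every CD44Neg library, which held for 4.37% of genes tested, and 1 of them lay above the lowest CD44LowKitNeg library. The edgeR log2 differences of -3.51 from CD44LowKitNeg (SE 1.20, adjusted p = 0.0549) and -4.34 from CD44Neg (SE 1.23, adjusted p = 0.0296) missed 0.01, although the second was called without CD44High library 20, which enters the shared spread (adjusted p = 0.0085).

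Against CD44Neg, 1 of 23 tested HOX members was called in CD44LowKitPos, where 3.48% of genes were called and 2.08% as higher. It was again Hoxa9, which was 2.06 higher on the log2 scale (SE 0.48, adjusted p = 0.00811, edgeR). Every CD44LowKitPos library was above every CD44Neg library, as for 5.29% of genes tested. The call depended on single libraries: it was lost in 10 of 22 fits that each left 1 out (CD44Neg libraries 1, 2, 4, 5, 6, 7, 8 and 9 and CD44LowKitPos libraries 17 and 18), where the log2 value ran down to 1.44, and with stage as a covariate (1.74, adjusted p = 0.0244). With E9.5 and E10 libraries alone it was the 1 member called (2.21, adjusted p = 0.00563), beside 2.8% of genes. CD44LowKitPos holds no E11 library.

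Hoxa9 accounted for 10.8% to 24.7% of HOX reads in CD44Neg, 23.3% to 58.4% in CD44LowKitNeg and 53.6% to 71.3% in CD44LowKitPos. The summed level of the other 38 members was 73.9 to 220.0 normalized CPM in CD44Neg, 131.3 to 205.2 in CD44LowKitNeg and 50.8 to 103.3 in CD44LowKitPos. These ranges overlap from CD44Neg to each of the others, but every CD44LowKitPos library lay below every CD44LowKitNeg library. Of the 23 members tested between CD44LowKitPos and CD44LowKitNeg, 19 had a log2 difference below 0 and 3 above. Their median was -1.31, against -0.0208 over all genes tested, and neither the sums nor the medians were tested.

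**Figure D4:**
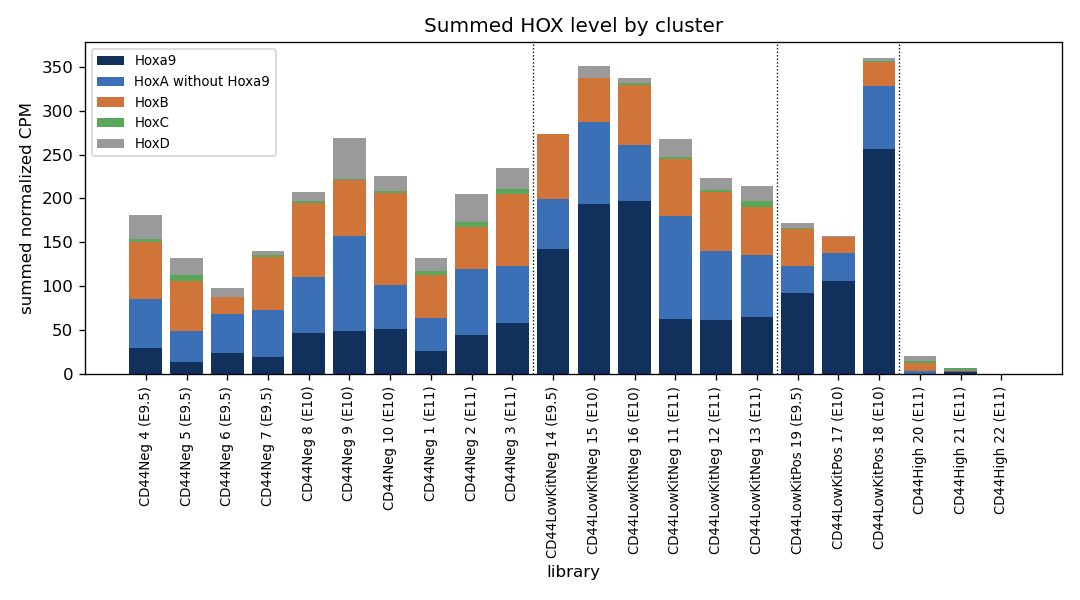
Summed level of HOX genes per library (y axis, normalized CPM) stacked by cluster with Hoxa9 apart (x axis, libraries by population and stage). CD44LowKitPos library 18 reaches 359.8, and the CD44High libraries 20.7, 6.91 and 0.271.

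In CD44High few HOX reads were found. The 3 libraries held 106, 26 and 1 HOX reads, for a summed level of 20.7, 6.91 and 0.271 normalized CPM, against 98.1 to 359.8 in the other 19 libraries. Counts were found for 13 members, and 19 members seen elsewhere were at 0 reads in all 3. In bulk samples, fewer cells that express a gene and less RNA per cell cannot be told apart.

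Against CD44LowKitPos, 5 members were called in CD44High, all lower: Hoxa5, Hoxa7, Hoxa9, Hoxa10 and Hoxb5. The share of genes called was 3.01%, and 2.23% as lower, against 5 of the 23 tested HOX members. Hoxa5, Hoxa10 and Hoxb5 had 0 reads in all CD44High libraries. They passed the filter through other populations, so they could only come out lower there. Every CD44High library lay below every CD44LowKitPos library for 12 members, which held for 12.1% of genes tested. Hoxa9 had 0, 9 and 0 reads in CD44High, or 0, 2.39 and 0 normalized CPM, and the edgeR log2 fold change was -7.62 (SE 0.95, adjusted p = 7.85e-06). All of its reads came from library 21, without which the fitted value, then against 0 reads, was -12.8. Hoxa7 had 3, 3 and 0 reads in CD44High against 14.9, 27.6 and 9.34 normalized CPM in CD44LowKitPos, and the log2 fold change was -5.14 (SE 1.04, adjusted p = 0.00242) and -4.41 with stage as a covariate. This pair shares no stage, so that covariate takes the step to E11 from the endothelial libraries and cannot separate stage from population here.

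For members at 0 in all 3 CD44High libraries a fold is only a lower bound, set here against 3 reads in each CD44High library (0.732 normalized CPM on average). Hoxa5, a central gene, was at least 13.6-fold lower than in CD44LowKitPos (8.06, 14.8 and 7.08 normalized CPM there, adjusted p = 1.97e-05, edgeR). Hoxb5, its HoxB counterpart, was at least 13.9-fold lower (adjusted p = 0.000778) and Hoxa10 at least 11.1-fold lower (adjusted p = 0.00334). A single library carried much of both bounds: without CD44LowKitPos library 19 that of Hoxb5 was 6.27-fold, and without library 18 that of Hoxa10 was 4.78-fold. None of the CD44LowKitPos libraries overlapped CD44High for these genes. Leaving out 1 library kept 3 to 5 members called: Hoxa10 was lost without CD44LowKitPos library 18 or any 1 CD44High library, and Hoxa7 without CD44LowKitPos library 18 or CD44High libraries 20 or 22.

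Against the 2 endothelial populations the same 10 members were called lower in CD44High, among them Hoxa5, Hoxa7, Hoxa9, Hoxa10, Hoxb2, Hoxb3, Hoxb4, Hoxb5 and Hoxd3. Both comparisons use the same CD44High libraries. Members at 0 reads in CD44High passed the filter through other populations and could only come out lower there. Among all genes 16% were called against CD44LowKitNeg (8.17% as lower) and 14.4% against CD44Neg (7.25% as lower). Every CD44High library lay below every other for 11 members in each comparison, beside 11.7% and 9.14% of genes tested.

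In HoxA, Hoxa10 was at least 27.8-fold lower than in CD44LowKitNeg and at least 9.41-fold lower than in CD44Neg. In the same order, Hoxa5 was at least 23.8-fold and 23.3-fold lower. Of the HoxB genes, Hoxb3 was at least 17.03-fold and 4.99-fold lower, Hoxb5 at least 11.01-fold and 17.04-fold lower, and Hoxb4, a gene used to expand blood stem cells, at least 4.74-fold and 3.299-fold lower. Hoxd3 was at least 2.53-fold lower than in CD44LowKitNeg and 4.06-fold lower than in CD44Neg. All CD44High libraries are from E11, and against the E11 endothelial libraries alone the bounds of Hoxb5 were 8.26-fold and 8.04-fold, and those against CD44LowKitNeg were 28.3-fold for Hoxb3 and 3.85-fold for Hoxd3. The edgeR adjusted p-values of these differences ran from 1.02e-06 for Hoxa5 against CD44Neg to 0.00765 for Hoxb3 against CD44Neg. The calls of Hoxb3 and Hoxd3 in both comparisons were lost without any 1 CD44High library (adjusted p from 0.0104 to 0.0364), Hoxb3 against CD44Neg also without CD44Neg library 2, 3 or 5 (0.0102 to 0.0106), and Hoxd3 against CD44LowKitNeg also without CD44LowKitNeg library 12 or 13 (0.0102 and 0.0119). With limma voom neither Hoxb3 against CD44Neg (0.0290) nor Hoxd3 against CD44LowKitNeg (0.0120) was called, and with no filter on low counts the latter was not either (0.0157).

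The calls of 3 members in CD44High rested on reads above 0. Hoxa9 differed by -7.29 from CD44LowKitNeg (SE 0.91, adjusted p = 2.57e-06) and by -5.56 from CD44Neg (SE 0.85, adjusted p = 2.93e-05) on the edgeR log2 scale. Hoxa7 differed by -4.92 (SE 0.99, adjusted p = 0.000626) and -4.53 (SE 0.95, adjusted p = 0.00100). Hoxb2, an anterior gene with 2.34, 0.27 and 0 normalized CPM in CD44High, differed by -3.56 in both comparisons (SE 0.95 and 0.93, adjusted p = 0.00711 and 0.00646), and both calls were lost without CD44High library 21 or 22 (adjusted p from 0.0299 to 0.0429). The call against CD44LowKitNeg was also lost without CD44LowKitNeg library 14 (0.0138), and that against CD44Neg without CD44Neg library 5, 7 or 10 (0.0101 to 0.0102). With stage as a covariate neither passed (0.0134 and 0.0177), nor with no filter on low counts (0.0111 and 0.0102). The size of these values depended on single CD44High libraries: without library 20 Hoxb2 was at -6.25 and -6.23, and without library 21, which held all Hoxa9 reads of CD44High, Hoxa9 was at -12.5 and -10.7, fitted against 0 reads. Hoxa7 moved to -5.51 against CD44LowKitNeg without library 21.

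At E11 fewer members could be tested and fewer passed. With the 3 E11 libraries of each population alone, 4 of the 13 members tested were called against CD44LowKitNeg (Hoxa5, Hoxa9, Hoxa10 and Hoxb3), beside 10.3% of genes, and 3 of 10 against CD44Neg (Hoxa5 and Hoxa10 among them), beside 9.65%. Apart from Hoxa9, the members called at E11 had 0 reads in CD44High. They passed the filter only through the endothelial libraries and could only come out lower. With all stages, 23 members were tested in each comparison. With E11 libraries alone, Hoxa9 against CD44Neg was at -5.83 with an adjusted p of 0.0103. Hoxa7, Hoxb2 and Hoxb5 missed the threshold in both (adjusted p from 0.0163 to 0.145), as did Hoxb4 against CD44LowKitNeg (0.0287). Over all stages, leaving out 1 library left 6 to 10 members called in either comparison, with 6 called without CD44High library 21 and again without library 22.

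What remained of HOX reads in CD44High lay mostly in 1 library. CD44High library 20 held 106 of the 133 reads, 35 of them from Hoxb7 (6.84 normalized CPM, against 0 in the other CD44High libraries). The edgeR log2 difference of Hoxb7 between CD44High and CD44Neg was -3.42 (SE 1.16, adjusted p = 0.0338) and was called without library 20 (adjusted p = 0.000706). The 10 mesenchymal markers summed to 216.1, 138.8 and 0.271 normalized CPM in libraries 20, 21 and 22. Macrophage markers, given above, set all 3 CD44High libraries apart from the rest, and the part of either marker set in the HOX levels was not tested.

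Beside the clusters no gene passed the test. Of 11 neighbour genes in the table, 7 were tested and none was called by edgeR in any of the comparisons, with 0 to 3 at an unadjusted p under 0.05 in each. Skap2, which flanks HoxA, read 95.4, 148.9 and 215.2 normalized CPM in CD44High and 89.5 to 137.5 in CD44Neg, so the ranges overlapped. Of the cluster transcripts with other names, Hoxd3os1, which lies opposite Hoxd3, had 0 reads in the 3 CD44High libraries and was the only one called, against CD44LowKitNeg (adjusted p = 0.00620). Hotairm1, a noncoding transcript of HoxA, stood at 4.66 ± 1.79 in CD44Neg, 10.96 ± 6.47 in CD44LowKitNeg, 1.76 ± 1.65 in CD44LowKitPos and 0.620 ± 1.07 normalized CPM in CD44High. Its edgeR log2 differences were 1.24 between the endothelial populations (SE 0.51, adjusted p = 0.0946) and -4.12 between CD44High and CD44LowKitNeg (SE 1.22, adjusted p = 0.0138), the second of which was called without CD44High library 21 (adjusted p = 0.000596). Limma voom called the second as well (-4.92, adjusted p = 0.000675).

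With the filter on low counts, no HOX gene was called by edgeR between stages. Within CD44Neg, E11 against E9.5 gave 0 members of 19 tested (0.684% of genes called), E10 against E9.5 gave 0 (0.0178%) and E11 against E10 gave 0 (0%). At an unadjusted p under 0.05 there were 2, 2 and 0 members, and in the first and second comparison these were Hoxa9 and Hoxb7. Limma voom called 0 in each, and DESeq2's Wald test called 0, 1 (Hoxb7) and 0. In CD44LowKitNeg, E11 against the earlier stages gave 0 of 17 (0.173% of genes), with 2 at an unadjusted p under 0.05, and DESeq2's Wald test called 1 (Hoxa9) and limma voom 0. With no filter on low counts Hoxa9 was called as well. The interaction gave 0 of 22 (0.00806%), with 2 at an unadjusted p under 0.05 and 0 by DESeq2 and limma voom. Groups did not overlap for 1 member lower at E11 in CD44LowKitNeg (13.4% of genes) and 1 higher (11.9%), and between E11 and E10 in CD44Neg for 1 higher (7.88%) and 2 lower (6.94%).

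Hoxb7 and Hoxa9 both had their lowest mean at E9.5 in CD44Neg. Hoxb7 read 13.6, 5.49, 7.26 and 15.2 normalized CPM at E9.5, 36.4, 35.1 and 49.5 at E10, and 33.1, 20.4 and 41.8 at E11. Each later library lay above each E9.5 library, which held for 2 members and 7.36% of genes at E10, and for 3 members and 9.86% of genes at E11. The edgeR log2 differences were 1.96 at E10 (SE 0.44, adjusted p = 0.0519), which DESeq2's Wald test called (adjusted p = 0.00266), and 1.62 at E11 (SE 0.44, adjusted p = 0.0630). For Hoxa9 they were 1.19 (SE 0.35, adjusted p = 0.123) and 1.003 (SE 0.35, adjusted p = 0.152). The sum of the 8 endothelial markers differed by stage too, with 3517 to 4295 normalized CPM at E9.5, 4905 to 5478 at E10 and 5658 to 5921 at E11. Of these markers Pecam1, Tie1 and Esam were called higher at E11 than at E9.5, and Runx1 was at 0 at E11 against 12.9 on average at E9.5 (adjusted p = 0.0484). Their part in the HOX differences was not tested.

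The TALE cofactors, the binding partners of HOX proteins, rose in part between the endothelial populations. Of 9 in the table, 6 were tested between the endothelial populations and 3 were called, Meis1 and Meis2 among them and all higher in CD44LowKitNeg, where 4.94% of genes were. Meis1, a partner of HOXA9, had a lowest, median and highest level of 0.78, 8.82 and 16.9 normalized CPM in CD44Neg and 32.0, 56.3 and 73.8 in CD44LowKitNeg. The groups did not overlap, and the log2 fold change was 2.51 (SE 0.48, adjusted p = 0.000942, edgeR). Meis2 changed by 2.24 (SE 0.38, adjusted p = 0.000412) from 21.7 ± 11.3 to 101.9 ± 30.6. By stage, the ratio of means of Meis1 was 2.53 at E9.5 (1 CD44LowKitNeg library) and 6.19 at E10. At E11 the CD44Neg libraries held only 7, 4 and 40 Meis1 reads, or 1.85, 0.78 and 6.19 normalized CPM, against 33.7, 46.5 and 66.1 in CD44LowKitNeg. Neither single-stage edgeR fit called it, with 2.69 at E10 (adjusted p = 0.0675) and 4.07 at E11 (adjusted p = 0.0111), while Meis2 was called at E11 (2.41, adjusted p = 0.00248) and not at E10 (3.01, adjusted p = 0.139). With all 22 libraries in 1 fit Meis2 missed the threshold as well (adjusted p = 0.0148).

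In the later populations Meis1 read 128.9, 126.8 and 52.3 normalized CPM in CD44LowKitPos and 35.8, 62.2 and 20.9 in CD44High. Against CD44Neg it was higher in both, by 3.45 (SE 0.52, adjusted p = 0.000139) and 2.08 (SE 0.53, adjusted p = 0.00523) on the edgeR log2 scale. The second call was lost without CD44High library 20 or 21 or CD44Neg library 5 and with limma voom (adjusted p = 0.0104). With E11 libraries alone, the stage of all CD44High libraries, the value was 3.66 and was not called (adjusted p = 0.0158), whereas with stage as a covariate it was 3.03 (adjusted p = 0.00163). From CD44LowKitNeg, whose range overlapped, CD44LowKitPos differed by 0.95, which was not called. With stage as a covariate this edgeR value was 0.27 (adjusted p = 0.853). The difference of CD44High from CD44LowKitPos was -1.37 (SE 0.73, adjusted p = 0.338), and the difference between the Meis1 and Hoxa9 changes was not tested.

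Meis2, a relative of Meis1, read 0.15, 5.87 and 33.0 normalized CPM in CD44LowKitPos and 10.4, 1.60 and 0 in CD44High, against 50.9 to 131.6 in CD44LowKitNeg. The fall from CD44LowKitNeg to CD44High was called (-4.61, SE 1.13, adjusted p = 0.00370, edgeR) but lost without CD44High library 21 or 22 (adjusted p = 0.0250 and 0.0189) and with E11 libraries alone (-4.90, adjusted p = 0.0149), and the value moved to -7.07 without CD44High library 20 and to -6.12 with limma voom. The difference of CD44LowKitPos from CD44LowKitNeg was not called (-2.97, SE 1.01, adjusted p = 0.0554, edgeR), although it was by DESeq2's Wald test (adjusted p = 0.00494) and by limma voom (adjusted p = 0.00929). Pbx4 was higher in CD44High than in CD44LowKitNeg, with 7, 7 and 12 reads against 0 (adjusted p = 0.00949), a call lost in 15 of 22 fits that left out 1 library.

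Of 9 genes that regulate HOX expression, 6 were tested and only Mllt3, a chromatin reader used in blood stem cells, was called in any population comparison. It was at 12.2 ± 10.0 normalized CPM in CD44Neg (SD, n = 10) and 108.1 ± 30.7 in CD44LowKitNeg (n = 6), with all CD44LowKitNeg libraries higher. The log2 fold change was 3.15 (SE 0.44, adjusted p = 6.84e-05, edgeR), with 3.99 at E11 alone (adjusted p = 0.00248) and 2.72 at E10 alone (adjusted p = 0.0885). Its levels in CD44LowKitPos and CD44High were 33.7 ± 11.7 and 40.4 ± 25.8. Kmt2a, whose product keeps HOX genes on, changed by 0.02 (SE 0.40, adjusted p = 0.978) between the endothelial populations.

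**Figure D5:**
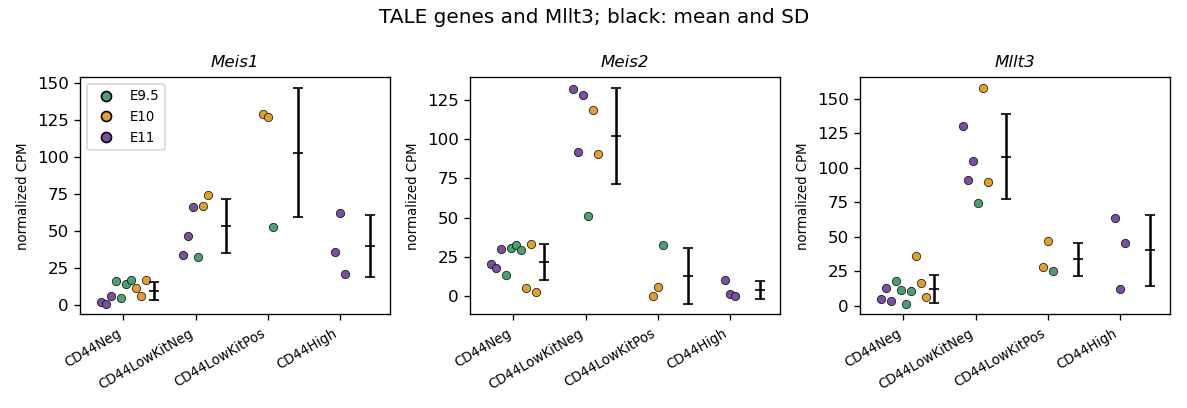
Levels of Meis1, Meis2 and Mllt3 (y axis, normalized CPM) by population (x axis); each point is a library coloured by stage and black bars give the mean and SD. Meis1 has its highest mean in CD44LowKitPos (52.3 to 128.9, a range that overlaps CD44LowKitNeg) and reads 20.9 to 62.2 in CD44High.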

How the data were processed

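RNA of 25 sorted cells per library was amplified by Smart-seq2 from oligo-dT primers and sequenced on an Illumina NextSeq 500. The authors used RNA STAR for alignment and htseq-count for gene totals, and the deposited table holds raw whole-number counts for 24454 genes in 22 libraries. The submitters' processing notes name mm10, FastQC and HTSeq. The annotation and strand setting are not given in the sources used here.

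Libraries were grouped by the labels. Whether libraries came from separate embryos is not given, so p-values measure the spread between these libraries, which may be technical. Genes were filtered with filterByExpr (minimum count 10, minimum total 15), scaled by TMM and tested with edgeR 4.0.16 quasi-likelihood fits, with Benjamini-Hochberg adjustment over all genes tested and calls under 0.01. Of the 39 members, 23 passed the filter in at least 1 comparison. The comparison of CD44LowKitNeg with CD44Neg used those 16 libraries, stage comparisons their own population, and the others all 22. DESeq2 1.42.0 and limma 3.58.1 served as alternatives, with other scaling, no filter, a threshold of 0.05, single stages, stage as a covariate and each library left out. Coordinates are from GENCODE M21. Fits were tested on simulated data.

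Values and tests were given for members called in at least 1 comparison and for the 2 highest members of each cluster; the other members appear as counts. Some genes are not reported here. The members and the gene lists were chosen with earlier results of these data known.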

Additional observations from a re-analysis of the deposited data

Results flagged for a closer look

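Single libraries stood apart for 3 of 14 HOX members described with values, in 5 of 42 groups examined by Dixon's test at its 95% level, a level that chance reaches in about 1 group in 20. Library 14, the only CD44LowKitNeg library at E9.5, was highest for Hoxb2 (22.8 normalized CPM, next 10.5) and for Hoxb5 (20.2, next 8.40). Hoxc5 was high in CD44Neg library 5 (2.15, all others 0), both over all CD44Neg libraries and within E9.5, and in CD44LowKitNeg library 13 (3.25, next 0.135).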

How the results depend on the processing

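Replacing the scaling factors by DESeq2's size factors, chosen after seeing the data, moved no population mean of the described members by more than 1 SD (56 of 56 values). The number of HOX members called between CD44LowKitNeg and CD44Neg, 1 throughout the fits that left out 1 library, was 0 with E11 libraries alone and 0 with E10 libraries alone. Between CD44LowKitPos and CD44LowKitNeg it was 1 (Hoxb7) with DESeq2's Wald test and 0 to 1 without single libraries. Between CD44LowKitPos and CD44Neg it was 2 with DESeq2, 2 at 0.05, 0 with stage as a covariate and 0 to 2 without single libraries. It was 3 to 5 without single libraries for CD44High against CD44LowKitPos. For CD44High against CD44LowKitNeg it was 4 at E11 alone and 6 to 10 without single libraries. Against CD44Neg it was 3 at E11 alone, 16 at 0.05 and 6 to 10 without single libraries. Between E10 and E9.5 in CD44Neg it was 1 (Hoxb7) with DESeq2. Between E11 and the earlier stages in CD44LowKitNeg it was 1 (Hoxa9) with no filter, with DESeq2 and at 0.05. Calls of Hoxb2, Hoxb3 and Hoxd3 in CD44High against the endothelial populations were also lost under some other settings, as given above. The cause of these shifts was not tested, beyond the fewer libraries of the single-stage fits. The share of all genes called at 0.05 is not given here, so counts at that threshold have no background beside them.

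The sign of Hoxa9 between CD44LowKitPos and CD44LowKitNeg turned without CD44LowKitPos library 18 (range without single libraries -0.32 to 0.56) and with E9.5 and E10 libraries alone (-0.27), and that of Hoxb3 between CD44LowKitNeg and CD44Neg with E10 libraries alone (-1.66). Of 377 single-gene values under other settings, 325 kept direction and side of the threshold, 31 lost the call, 19 gained it and 2 turned sign. No paired analysis was possible because replicate numbers run through all libraries and no number recurs between groups. Depth limits members with few reads: HOX reads were 501 to 2699 per library outside CD44High.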
